A study of Mus musculus with 2 samples.

Results

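Vascular endothelial nuclei of the calf were selected on the measured counts, as the nuclei in which at least 3 of 8 genes, Pecam1, Cdh5, Flt1, Ptprb, Emcn, Tek, Kdr and Cyyr1, had 1 or more unique molecular identifiers (UMIs, counts of single captured transcripts). The rule took 113 of 16530 nuclei, 75 of 9156 in plantaris and 38 of 7374 in gastrocnemius. Both muscles came from wild-type C57BL/6 mice aged 12 weeks, and each was measured by single-nucleus RNA sequencing in 1 library. The muscles were minced and homogenised with beads, and the nuclei were stained with propidium iodide, a DNA dye, sorted, and captured with the 10x Chromium 3' v3.1 kit. How many animals were used, and of which sex, is not stated in the sources used here. With 1 library per muscle, no test between the muscles was possible, and muscle, animal and library cannot be told apart. Intervals in parentheses are at 95% and cover counting error only.

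Endothelial cells line every blood vessel, and in skeletal muscle most of them belong to capillaries that run along the fibres. They sense vascular endothelial growth factor through the receptors Flt1 and Kdr and angiopoietins through Tek with its partner Tie1, and they hold together through Cdh5 (VE-cadherin) and Pecam1. Muscle capillaries also carry fatty acids to the fibres with the help of Gpihbp1, Cd36 and Fabp4, and transcription factors of the ETS, SOX and GATA families maintain the endothelial programme.

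The promoters of 3 of the 8 selecting genes are shown because they hold AGGAAG, a form of the site bound by ETS factors. Several ETS factors were detected in these nuclei. Each is the stretch from 250 bases before to 50 after the RefSeq start of the gene on build GRCm38.p6, written on the gene's strand. Capitals mark AGGAAG or its reverse complement CTTCCT. Flt1 lies at chr5:147725962-147726261, minus strand, Emcn at chr3:137340828-137341127, plus strand and Cyyr1 at chr16:85550324-85550623, minus strand.
Flt1: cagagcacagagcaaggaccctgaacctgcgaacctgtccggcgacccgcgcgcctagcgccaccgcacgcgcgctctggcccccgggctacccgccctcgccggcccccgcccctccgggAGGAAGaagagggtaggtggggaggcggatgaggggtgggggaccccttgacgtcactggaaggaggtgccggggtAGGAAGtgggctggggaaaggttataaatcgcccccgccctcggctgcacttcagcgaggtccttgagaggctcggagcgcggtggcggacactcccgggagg
Emcn: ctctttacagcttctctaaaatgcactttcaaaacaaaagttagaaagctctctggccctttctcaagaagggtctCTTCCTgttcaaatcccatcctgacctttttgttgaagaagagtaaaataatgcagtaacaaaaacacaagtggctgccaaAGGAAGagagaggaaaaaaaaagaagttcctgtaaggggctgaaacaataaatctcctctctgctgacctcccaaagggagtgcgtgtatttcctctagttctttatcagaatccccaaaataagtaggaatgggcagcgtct
Cyyr1: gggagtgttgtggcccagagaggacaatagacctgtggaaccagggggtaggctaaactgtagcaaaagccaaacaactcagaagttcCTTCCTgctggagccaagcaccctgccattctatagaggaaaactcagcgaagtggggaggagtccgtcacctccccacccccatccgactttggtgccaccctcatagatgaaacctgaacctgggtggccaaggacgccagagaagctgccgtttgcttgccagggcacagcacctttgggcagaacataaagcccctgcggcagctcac
The RefSeq table held promoters for 5 of the 8 genes. Other forms of the ETS site were not searched, so a promoter without AGGAAG may still hold one. AGGAAG occurred on either strand 2 times in Flt1, 2 times in Emcn and 1 time in Cyyr1, and in neither Tek nor Kdr. It was present in 35.1% of 27025 mouse promoters of this length. Among the 67 promoters found for the 100 endothelial genes described further on, 25 held it, or 37.3%, close to the share of all promoters. AGATAA, a form of the GATA site, read on both strands, was in 4 of these 67 promoters (5.97%) and in 11.4% of all promoters. A match describes the letters only.

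Endothelial nuclei made up 0.819% (0.645 to 1.03) of nuclei in plantaris and 0.515% (0.365 to 0.707) in gastrocnemius. At the threshold, 29 plantaris and 7 gastrocnemius nuclei had exactly 3 selecting genes, and just outside it 51 and 24 nuclei had 2. At the upper end, 4 plantaris nuclei had 7 of the genes and 2 gastrocnemius nuclei had all 8. The barcode sequences of 17 nuclei occurred in both libraries, and none of them was endothelial in both.

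**Figure D1:**
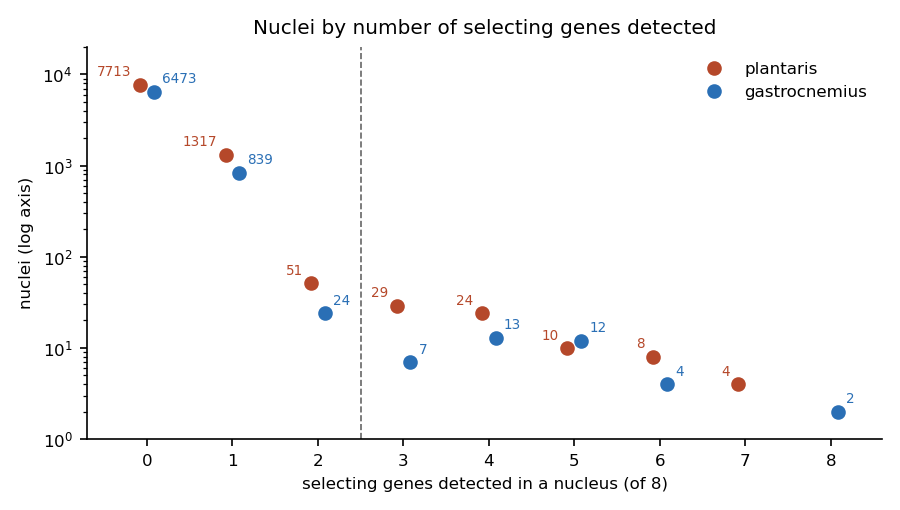
Nuclei (log axis) by the number of the 8 selecting genes detected in them, with the count beside each point and the threshold of 3 genes as a dashed line. Numbers ran from 7713 plantaris and 6473 gastrocnemius nuclei with none of the genes to 29 and 7 with exactly 3.

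These nuclei were shallow, and a minority of very deep ones weighed on every sum. Endothelial nuclei had a median of 1237 UMIs (plantaris) and 1263.5 UMIs (gastrocnemius), against 2722 and 2272 in the other nuclei of plantaris and gastrocnemius. However, 20 plantaris and 4 gastrocnemius endothelial nuclei held over 2500 UMIs, up to 42337 and 25661, and supplied 77.8% and 49.3% of all endothelial UMIs of their library. The deeper nuclei held about as many endothelial transcripts as the rest: UMIs on the 8 selecting genes had a median of 10 in plantaris and 8 in gastrocnemius nuclei over 2500 UMIs, against 10 and 11 in those up to 2500, and UMIs on 24 further endothelial markers a median of 20 and 20, against 17 and 18. Their UMIs on myonuclear markers took a larger share: 8 such markers, Ttn and Neb among them, took a median of 3.15% and 4.71% of their UMIs, against 0.605% and 0.727% in the nuclei up to 2500 UMIs and 5.29% and 6.43% in the other nuclei. In 15 of the 20 and 2 of the 4 nuclei, 3 or more markers of a mural, mesenchymal, macrophage, muscle stem cell or glial list were present, a count that rises with depth. As a share of UMIs, mesenchymal markers had 1742 CPM in the deep and 399 in the shallower endothelial nuclei of plantaris and 431 and 652 in those of gastrocnemius. Mural markers had 707 and 732 CPM in plantaris and 359 and 722 in gastrocnemius, and macrophage markers 569.6 and 133 in plantaris and 0 and 69.9 in gastrocnemius. In the nuclei up to 2500 UMIs, 3 or more mesenchymal markers were present in 1 of 55 plantaris and 3 of 34 gastrocnemius nuclei, mural markers in 1 and 0, and macrophage, muscle stem cell and glial markers in 0 and 0. For some results, values over all endothelial nuclei are therefore given beside those in the 55 plantaris and 34 gastrocnemius nuclei up to 2500 UMIs. That bound was set after the totals had been seen. Levels given without such a second value are over all endothelial nuclei, the deep ones included. The doublet caller scrublet marked 2 barcodes of each library, none of them endothelial, so its calls are taken not to have worked. Its scores had a median of 0.129 in plantaris and 0.148 in gastrocnemius endothelial nuclei over 2500 UMIs, against 0.0429 and 0.0673 in those up to 2500 and 0.0558 and 0.0725 in other nuclei. Whether the deep barcodes held more than 1 nucleus was not tested further.

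**Figure D2:**
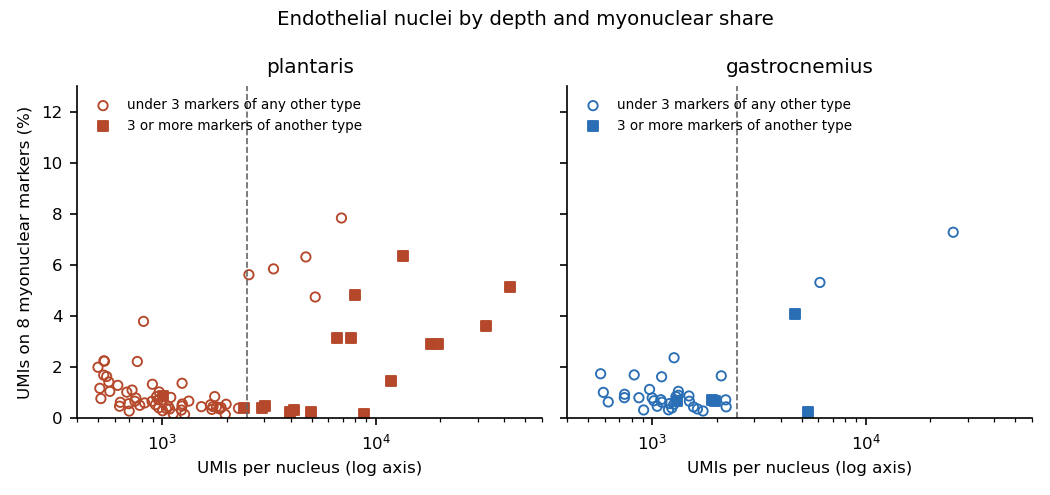
Share of UMIs on 8 myonuclear markers (percent) against UMIs per nucleus (log axis) for each endothelial nucleus of plantaris (left) and gastrocnemius (right). Filled squares hold 3 or more markers of another non-muscle type, open circles fewer, and the dashed line marks 2500 UMIs, right of which 20 plantaris and 4 gastrocnemius nuclei lie.

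The selecting genes themselves are a description, since they chose the nuclei. Flt1, the receptor that binds vascular endothelial growth factor A most tightly, was among the most widely detected, in 69 of 75 plantaris and 31 of 38 gastrocnemius nuclei. Its level, in counts per 1000000 UMIs of the group (CPM), was 1059.7 (941 to 1189.7) in plantaris endothelial nuclei and 1855 (1576 to 2168) in gastrocnemius endothelial nuclei, against 4.56 and 2.74 in other nuclei. Nuclei up to 2500 UMIs had 3824 (3346 to 4351) and 3472 (2937 to 4076) CPM. Cyyr1, a small membrane protein, was found in 40 plantaris and 31 gastrocnemius nuclei, Ptprb (VE-PTP, the phosphatase of Tek and Cdh5) in 55 and 27, and Pecam1 in 43 and 28. Cdh5 was found in 36 and 16, Kdr in 22 and 13, and Emcn, a sialomucin of capillaries and veins, in 20 and 12. Tek was the least selective of the 8, with 12.8% of other plantaris nuclei and 10.1% of other gastrocnemius nuclei holding it. Its level was 218 CPM in plantaris and 272 in gastrocnemius endothelial nuclei, against 70.1 and 57.7 in the other nuclei. Each of the remaining 7 genes was in under 1% of other nuclei.

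The 24 further endothelial markers were not used by the rule, but were chosen with earlier results of these data known. They are a description in accord with the name and not independent support for it. Every one of them had UMIs in the endothelial nuclei of both libraries, 23 were higher there than in other nuclei in both, and 19 were past 4-fold in both. For comparison, 8.24% of the 8347 genes with at least 1 UMI in the endothelial nuclei of each library were past 4-fold in both. Of the endothelial nuclei, 74 of 75 in plantaris and 37 of 38 in gastrocnemius held 3 or more of these markers, against 1133 of 9081 and 517 of 7336 other nuclei, although the other nuclei were deeper. Among nuclei with only 2 selecting genes, 29 of 51 in plantaris and 6 of 24 in gastrocnemius held 3 or more, against 28 of 29 and 7 of 7 among those with exactly 3. Tie1 had 114 and 201 CPM in plantaris and gastrocnemius endothelial nuclei, against 0.380 and 0.105 in other nuclei. Egfl7, a secreted protein of growing vessels, had 207 and 189 CPM, against 0.552 and 0.264. Eml1, Rasgrp3, Palmd, Calcrl and Plvap were not past 4-fold in both. Eml1, a microtubule-binding protein, was level with the other nuclei, with 188 and 224 CPM, against 194 and 165 in other nuclei.

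Across the genome, leaving out the 8 selecting genes and the mitochondrial genes, 888 genes had 20 or more UMIs in the endothelial nuclei of each library. Of these, 100 (11.3%) were past 4-fold higher than in other nuclei in both, while 0 were past 4-fold lower. Because the minimum is on endothelial counts, depleted genes tend to fall below it, so the 0 does not show that none was depleted. In nuclei up to 2500 UMIs, Ttn had log2 ratios of -3.31 in plantaris and -3.24 in gastrocnemius, and Neb -2.75 and -3.06. The median of the 8 myonuclear markers there was -1.87 and -2.20. The median over the 888 genes was a log2 ratio of 0.13 in plantaris and 0.19 in gastrocnemius. Of the 100 genes, 46 were also past 4-fold over mural nuclei, 53 over mesenchymal nuclei and 40 over both, where each class was set by 3 or more of its own 8 markers. The transcription factor Dach1, known for its part in artery growth in mice, led the genes together with the adhesion receptor Adgrl4, which is found in endothelium. Dach1 (chr14:97786853-98169765, GENCODE M21) was in 49 of 75 plantaris and 28 of 38 gastrocnemius nuclei, with 649.9 (557 to 753) and 1453 (1208 to 1734) CPM, against 1.79 and 1.79 in other nuclei. Its log2 ratio was 8.50 (8.05 to 8.98) in plantaris and 9.66 (9.10 to 10.26) in gastrocnemius. Adgrl4 (chr3:151437887-151545086) was in 41 and 26 nuclei, with 277 (218 to 347) and 1016 (813 to 1255) CPM, against 0.828 and 0.844. Its log2 ratio was 8.39 (7.71 to 9.11) in plantaris and 10.23 (9.45 to 11.10) in gastrocnemius.

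Among the other 22 of the 24 leading genes were several signalling genes. The Rap exchange factor Rapgef5 had log2 ratios of 7.27 in plantaris and 8.35 in gastrocnemius, Mcf2l 6.98 and 8.18, and the Ras exchange factor Rasgrf2 5.99 and 8.67. Shank3, a scaffold best known from synapses, had 7.11 and 8.72. The kinase Prkch had 6.83 and 8.22, and the inositol trisphosphate kinase Itpkb, found in 64 of 75 and 34 of 38 nuclei, had 4.75 and 5.52. The phospholipase Plcb1 and the ubiquitin ligase Lnx1 had 4.61 and 5.73 in plantaris and 5.38 and 6.06 in gastrocnemius. These genes span a wide range of specificity, since Itpkb and Plcb1 had 36.8 and 29.8 CPM in the other nuclei of plantaris, against 1.17 for Rapgef5.

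Genes of the cell surface were also among them. The water channel Aqp1 had 233 and 543 CPM in plantaris and gastrocnemius endothelial nuclei, against 1.07 and 0.686 in other nuclei. The sialomucin Podxl had 81.2 and 236 CPM, against 0.794 and 0.316. The adhesion receptor Adgrf5 and the laminin receptor chain Itga6 had log2 ratios of 6.15 and 6.66 in plantaris and 8.22 and 7.20 in gastrocnemius. Kitl, the ligand of the receptor Kit, had 325 and 768 CPM, against 12.5 and 15.1. Its log2 ratio over mural nuclei was smaller, at 1.26 in plantaris and 0.92 in gastrocnemius. The transcription factor Mecom was the most abundant of the 24 at 1082 and 2149.9 CPM, against 46.6 and 68.7 CPM in other nuclei. The sialyltransferase St6galnac3, the actin-binding protein Ablim3, the zinc finger protein Zfp366, Samd12, the tetraspanin Tspan13, Fabp4, Pparg and the transcript Gm12002 completed the set, with log2 ratios between 5.06 and 8.86. Gm12002 is annotated as antisense, and since the strand setting of the counting is not stated, its reads cannot be told apart from those of a partner gene. All 24 stayed past 4-fold in both libraries in the nuclei up to 2500 UMIs, where Dach1 reached log2 ratios of 10.44 and 10.62.

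**Figure D3:**
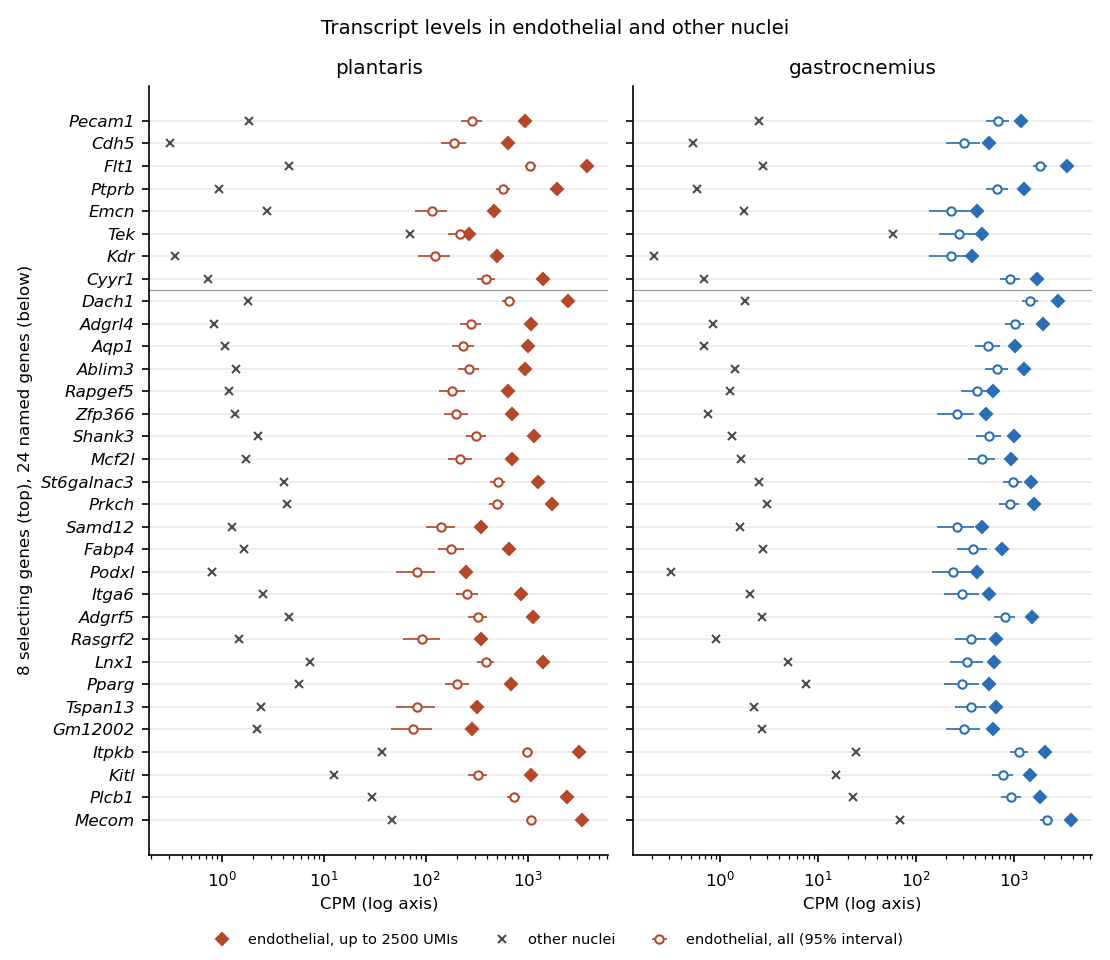
CPM (log axis) of the 8 selecting genes (above the line) and the 24 leading genes in plantaris (left) and gastrocnemius (right). Open circles with 95% counting intervals are all endothelial nuclei, diamonds those up to 2500 UMIs and crosses the other nuclei; each gene's circle lies right of its cross in both libraries.

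Genes on a list of vascular receptors were higher in endothelial nuclei more often than genes on a list of growth factor ligands. The 2 lists are not matched pairs, since the receptors include the guidance receptor Robo4 and the semaphorin receptor Plxnd1. Counts of list genes past 4-fold are descriptions: some of the genes have only 1 to 3 UMIs, and the share of all genes, 8.24%, is over genes with a UMI in both libraries, so the number of list genes with a UMI in both is given as well. Of 9 receptors and co-receptors outside the selecting genes, 9 had a UMI in both libraries and 7 were past 4-fold in both. The co-receptor Nrp2 had 192 and 389.8 CPM in plantaris and gastrocnemius endothelial nuclei, against 13.8 and 9.18 in other nuclei. Nrp1, its relative, was less selective, with 465 and 673 CPM, against 201 and 83.2. Robo4, an endothelial guidance receptor, had 20 and 7 UMIs, and Plxnd1, a semaphorin receptor, 36 and 13. Of 11 ligands, 8 had a UMI in both libraries and 2 were past 4-fold in both, Vegfc with 16 and 5 UMIs and Angpt2, the antagonist of Tek released by endothelium, with 3 and 3. Vegfa had 318 and 165 CPM in endothelial nuclei, against 582 and 419.8 in other nuclei, a log2 ratio of -0.87 (-1.20 to -0.57) and -1.34 (-2.22 to -0.60).

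Of 20 endothelial transcription factors, 19 had a UMI in both libraries and 14 were past 4-fold in both. Among ETS factors, Erg, which is required for vessel stability in mice, had 118 and 177 CPM in plantaris and gastrocnemius endothelial nuclei, against 1.17 and 0.738 in other nuclei. Fli1 had 421 and 579 CPM, against 24.1 and 16.3, and Ets1 199 and 284, against 20.3 and 15.9. Elk3 had 96.0 and 378 CPM, against 11.4 and 6.96. Gata2 was rarer, with 12 and 8 UMIs, but its log2 ratios were 8.74 (6.85 to 11.21) and 10.81 (7.91 to 16.28). The flow-responsive factor Klf2 had 133 and 129.9 CPM, against 10.0 and 2.06, and the hypoxia-inducible factor Epas1 255 and 649.7, against 56.1 and 39.9. The SOX factors Sox7, Sox17 and Sox18 had few UMIs, with 1, 6 and 1 UMIs in plantaris and 6, 2 and 3 in gastrocnemius. Hhex had none in either. Mef2c, which muscle fibres use as well, was lower in endothelial nuclei, with 908 and 1406 CPM, against 1709 and 2178.

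Of 19 genes of capillaries and fatty acid transport, 17 had a UMI in both libraries and 14 were past 4-fold in both. At least 2 of the 19 were held by 64 of 75 plantaris nuclei (85.3%, 75.3 to 92.4) and 34 of 38 gastrocnemius nuclei (89.5%, 75.2 to 97.1), against 18.1% and 7.77% of other nuclei. Fabp4, a fatty acid carrier, had 177 and 378 CPM in plantaris and gastrocnemius endothelial nuclei, against 1.66 and 2.74 in other nuclei. Pparg, the nuclear receptor that drives lipid uptake genes, had 203 and 295 CPM, against 5.66 and 7.49. Gpihbp1, which anchors lipoprotein lipase to the capillary wall, had 20 UMIs in 17 plantaris nuclei and 3 UMIs in 3 gastrocnemius nuclei, at 73.8 and 35.4 CPM. The caveolar gene Cav1 had 325 and 437 CPM, against 14.0 and 10.5. Lpl, the lipase itself, was close to other nuclei in plantaris, with 244 CPM against 201 in other nuclei, and had 366 against 71.7 in gastrocnemius.

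Of 15 arterial genes, 14 had a UMI in both libraries and 11 were past 4-fold in both, and of 12 venous genes 6 had a UMI in both and 2 were past 4-fold. The vessel-type lists differ in length and in how common their genes are in other nuclei, so their shares of nuclei are not ranked. At least 2 of 15 arterial genes were found in 27 of 75 plantaris nuclei (36%, 25.2 to 47.9) and 9 of 38 gastrocnemius nuclei (23.7%, 11.4 to 40.2), against 2.11% and 0.804% of other nuclei. At least 2 of 12 venous genes were found in 13 plantaris nuclei (17.3%, 9.57 to 27.8) and 6 gastrocnemius nuclei (15.8%, 6.02 to 31.3), against 1.41% and 0.695%. With every nucleus thinned to 800 UMIs, which left out 20 plantaris and 5 gastrocnemius endothelial nuclei, the arterial shares were 16.4% and 9.09% and the venous shares 5.45% and 12.1%. Neither list reached 2 genes in 42 plantaris and 24 gastrocnemius nuclei, and 7 and 1 nuclei reached 2 of both. The arterial genes Efnb2 (the ephrin ligand of arteries) and Cxcl12 had 25 and 21 UMIs in plantaris and 6 and 9 in gastrocnemius. The arterial Notch ligand Dll4 had 4 UMIs in 4 plantaris nuclei and 4 in 3 gastrocnemius nuclei. The venous genes Ephb4, the receptor of Efnb2, and Vwf (von Willebrand factor) had 14 and 9 UMIs in plantaris and 9 and 5 in gastrocnemius, while Selp, Sele and Ackr1, which mark activated or postcapillary veins, had none in endothelial nuclei of either library.

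The rule also took a few nuclei with lymphatic genes. At least 2 of 7 lymphatic genes were present in 5 plantaris and 1 gastrocnemius nuclei. The gastrocnemius nucleus, of 5344 UMIs, held 62 lymphatic UMIs, 21 of them on Mmrn1, 14 on the chemokine Ccl21a, 12 on Reln and 9 on Prox1, the factor that sets lymphatic identity. In plantaris, 1 nucleus of 1991 UMIs held 19 and another of 2941 UMIs held 11, while the other 3, of 619, 11800 and 42337 UMIs, held 2, 4 and 3 and carried 8, 173 and 2170 UMIs on myonuclear markers. These nuclei supplied all Mmrn1, Reln, Ccl21a and Lyve1 UMIs of the endothelial nuclei in both libraries.

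Cdh5 and Pecam1 aside, most junction genes were higher as well. Of 18 such junction and adhesion genes, 17 had a UMI in both libraries, all 17 were higher in both and 11 were past 4-fold in both. Jam2 had 88.6 and 224 CPM in plantaris and gastrocnemius endothelial nuclei, against 5.52 and 4.53 in other nuclei, and Itga1, a collagen receptor chain, 318 and 402, against 34.5 and 24.7. Itga1 was not higher than in mural nuclei, with log2 ratios over them of -0.49 in plantaris and -0.53 in gastrocnemius. The tight junction gene Cldn5, a usual endothelial marker, was nearly absent from the endothelial nuclei, with 3 and 2 UMIs. Cdh13 was the most abundant of the group at 1817 and 3461 CPM, but other nuclei held 1608 and 2041.

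Of 16 genes for vascular tone and shear, 15 had a UMI in both libraries and 6 were past 4-fold in both. Nos3, the endothelial nitric oxide synthase, had 18 UMIs in 13 plantaris nuclei and 10 in 9 gastrocnemius nuclei, with 66.5 and 118 CPM, against 0.483 and 0.369 in other nuclei. The shear-sensing channel Piezo1 had 144 and 82.7 CPM, against 38.5 and 41.7.

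Of 19 genes of the bone morphogenetic protein (BMP) and TGF-beta pathway, 17 had a UMI in both libraries and 7 were past 4-fold in both. The ligand Bmp6 had 303 and 768 CPM, against 31.1 and 27.9 in other nuclei, the co-receptor Eng log2 ratios of 4.20 and 4.94, and the target gene Id1 88.6 and 82.7 CPM, against 0.690 and 0.896. The receptor gene Acvrl1, with 11 and 5 UMIs, had log2 ratios of 1.95 (0.94 to 2.81) and 3.13 (1.48 to 4.39), and the receptor gene Bmpr2 had 262 and 461 CPM, against 213 and 233. Of 15 Notch genes, 10 had a UMI in both libraries and 5 were past 4-fold, Notch1, Notch4, Hes1, Hey1 and Dll4. Notch4, a receptor found mainly in endothelium, had 12 and 9 UMIs, with 44.3 and 106 CPM, against 0.483 and 0.686.

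Of 15 basement membrane genes, all with a UMI in both libraries, 11 were higher than in other nuclei in both and 3 past 4-fold in both, Lama3, Lama4 and Col4a2. Col4a1, the main collagen of vessel basement membranes together with Col4a2, had 683 and 378 CPM, against 142 and 107 in other nuclei. Over mural nuclei, Col4a2 had log2 ratios of 0.16 in plantaris and -0.51 in gastrocnemius. Of 16 genes for antigen presentation by class I MHC and the interferon response, 14 had a UMI in both libraries and 9 were past 4-fold. B2m, the light chain of class I molecules, had 92.3 and 94.5 CPM, against 4.62 and 4.80, and the surface protein Ly6c1 6 and 7 UMIs. Of 20 stress and immediate early genes, 9 had a UMI in both libraries and 1 was past 4-fold, Ier2 with 3 and 1 UMIs. Fos and Nr4a2 had no UMI in the endothelial nuclei. Restricted to nuclei up to 2500 UMIs, 17% of the 5710 genes with a UMI in both libraries were past 4-fold in both, so the list counts are read against that share there. Of list genes with a UMI in both, 15 of 19 transcription factors, 15 of 17 capillary, 9 of 11 arterial, 2 of 4 venous and 8 of 9 receptor genes were past 4-fold in these nuclei. Among the other lists it was 14 of 17 junction, 8 of 13 basement membrane, 13 of 13 class I MHC and interferon, 8 of 16 BMP and TGF-beta, 6 of 8 Notch, 7 of 11 tone and shear, 2 of 5 ligand and 3 of 7 stress genes.

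**Figure D4:**
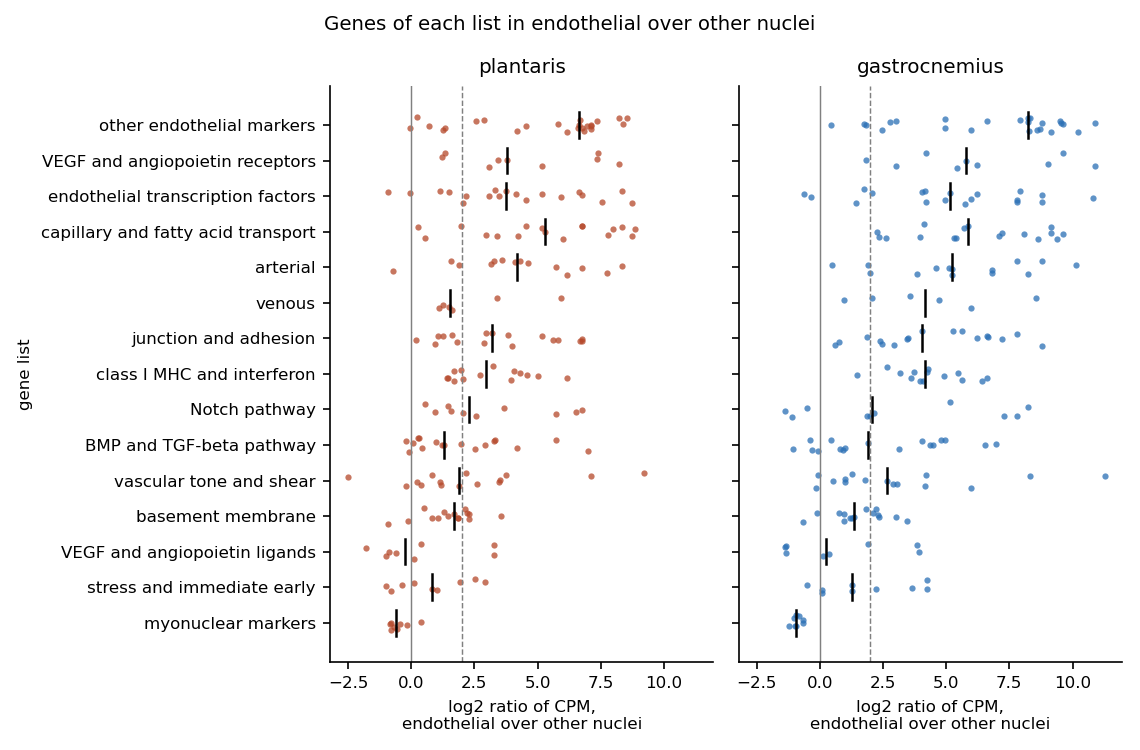
Log2 ratio of CPM in endothelial over other nuclei for each gene with a UMI in the endothelial nuclei of both libraries, by gene list, in plantaris (left) and gastrocnemius (right), without the 8 selecting genes. Bars are medians, the solid line marks equal levels and the dashed line 4-fold; the other endothelial markers have medians of 6.63 and 8.22, and the myonuclear markers of -0.61 and -0.93.

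Between the muscles, the summed endothelial transcripts gave lower levels of endothelial genes in plantaris, and the gap was smaller without the deep nuclei. Of the 100 genes past 4-fold over other nuclei, 92 were lower in plantaris and 34 past 2-fold lower, with a median log2 ratio of plantaris over gastrocnemius of -0.84, against 0.00 over the 1305 genes with 60 or more endothelial UMIs. Up to 2500 UMIs the median was -0.11 and 57 of the 100 were lower, and without nuclei holding 3 or more markers of another type it was 0.32 and 29 were lower. Among the 1305 genes, 91 (6.97%) were past 2-fold higher in plantaris and 64 (4.9%) past 2-fold lower.

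Of the 7 capillary genes with 60 or more UMIs, 3 were past 2-fold lower in plantaris, Cd36, Aqp1 and Fabp4, and the median of the 7 was -0.83, close to the -0.84 of the 100 genes. Cd36, the fatty acid translocase, had 97 UMIs in 36 of 75 plantaris nuclei and 110 in 28 of 38 gastrocnemius nuclei, a log2 ratio of -1.86 (-2.27 to -1.45). In the nuclei up to 2500 UMIs it was in 24 of 55 and 25 of 34, at 881 and 2120.3 CPM, a log2 ratio of -1.27 (-1.78 to -0.76). Other nuclei differed little, with 244 and 211 CPM. Aqp1 and Fabp4 had a smaller gap there, at 998 and 648 CPM in plantaris and 1025 and 746 in gastrocnemius nuclei up to 2500 UMIs.

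Among the 12 genes named for the lowest ratios, 8 were past 2-fold lower in plantaris in the nuclei up to 2500 UMIs, and 4 without nuclei holding 3 or more markers of another type, where all 12 were still lower. Pdgfd, a platelet-derived growth factor that acts on the receptor of mural cells, had 53 UMIs in 31 plantaris nuclei and 97 in 24 gastrocnemius nuclei, 23 of them in 1 nucleus, a log2 ratio of -2.55 (-3.06 to -2.05). Up to 2500 UMIs the ratio was -1.86 (-2.45 to -1.29), while in other nuclei it was -0.03. Tmcc3, a protein of the endoplasmic reticulum, had 482 CPM in 20 of 55 plantaris and 1887 in 25 of 34 gastrocnemius nuclei up to 2500 UMIs, a log2 ratio of -1.97 (-2.63 to -1.34). The junction plaque protein Pkp4 had -1.12 (-1.66 to -0.59) there, the xanthine dehydrogenase gene Xdh -1.37 (-2.04 to -0.73), the Ras regulator Rasal2 -1.26 (-1.77 to -0.76), Cpne8 -1.37 (-2.47 to -0.34) and Ccdc85a -1.07 (-1.43 to -0.71). Ccdc85a stood apart because other nuclei had more of it in plantaris, with 132 CPM against 39.9. Adgrl4, at -1.88 (-2.34 to -1.41) over all nuclei, had -0.90 (-1.39 to -0.41) up to 2500 UMIs, and Tanc1 -0.72 (-1.32 to -0.12). Dkk2 and Zfpm2 rested on single nuclei: all 97 Dkk2 UMIs and 29 of 37 Zfpm2 UMIs of gastrocnemius came from 1 nucleus each.

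The 12 genes named for the highest ratios lay largely in the deep plantaris nuclei. For 9 of them, Fap, the fibroblast activation protein, and Hmcn2 and Fstl1 of the extracellular matrix among them, mesenchymal nuclei of plantaris had a higher CPM than its endothelial nuclei. Fap had 60 UMIs in 16 plantaris nuclei, of which 3 were in nuclei up to 2500 UMIs, and 1 UMI in gastrocnemius, a log2 ratio of 4.23 (1.70 to 9.56). Fstl1 had 64 and 0 UMIs, a log2 ratio of 2.74 with 3 counts as the floor for the 0. The lower end of its 95% interval was 2.40, but only 4 of its plantaris UMIs were in nuclei up to 2500. Mctp1, Slc9a9, Naaladl2, Hmcn2, Pid1, Pcdh7, Sdk1, Morrbid and Zfp462 had 2 to 11 plantaris UMIs there. P4ha1, the catalytic subunit of the prolyl hydroxylase that modifies collagen, was spread more widely, with 76 UMIs in 31 of 75 plantaris nuclei and 5 in 3 of 38 gastrocnemius nuclei, a log2 ratio of 2.25 (0.96 to 3.91). Up to 2500 UMIs it was in 14 of 55 and 2 of 34 nuclei, at 366 (229 to 554) and 46.6 (5.64 to 168) CPM. Other nuclei also had more of it in plantaris, with 177 CPM against 72.1.

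**Figure D5:**
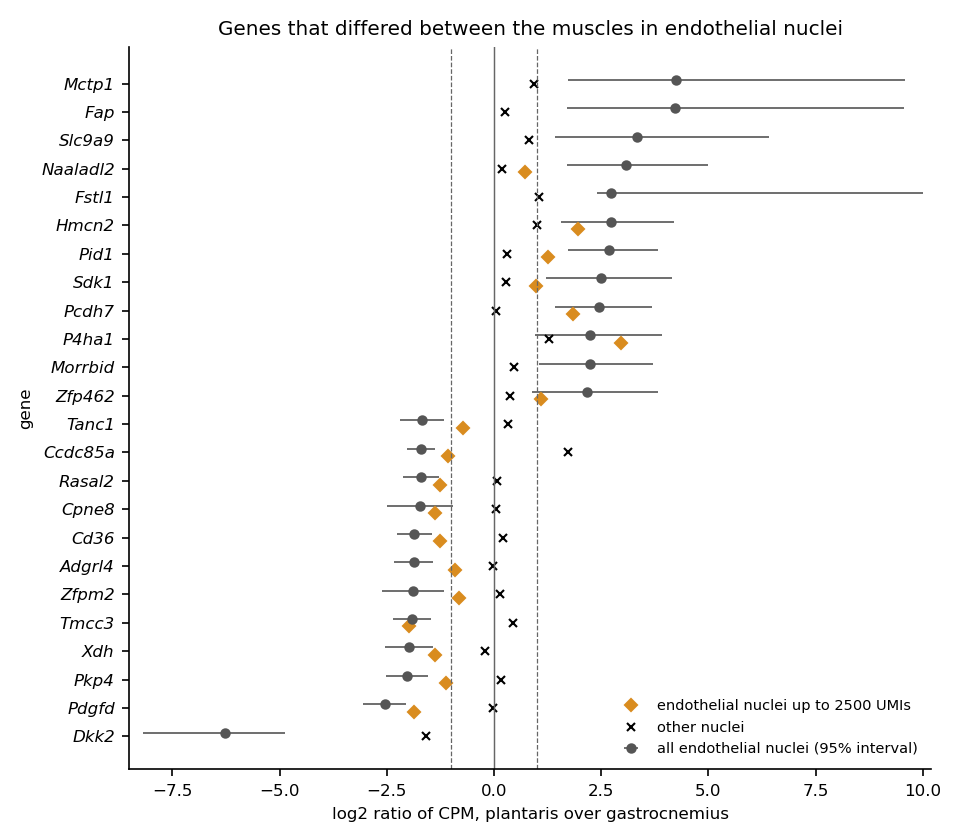
Log2 ratio of CPM in plantaris over gastrocnemius for the 12 highest and 12 lowest genes of endothelial nuclei, with all endothelial nuclei (circles, 95% counting intervals; the upper end for Fstl1 is unbounded and cut at the edge), those up to 2500 UMIs (diamonds) and other nuclei (crosses). Dashed lines mark 2-fold, and no diamond is drawn where the counts allow no ratio; Naaladl2, with 0 gastrocnemius UMIs there, is drawn at its floor. Diamonds lie nearer to 0 than circles for most genes but not for P4ha1 and Tmcc3.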

How the data were processed

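The deposited file is a table of UMI counts for 32285 genes in 16530 nuclei, made by the authors with Cell Ranger 6.0.1 on the mouse build mm10, per the submitters' processing notes; a second deposited table gives the library of each nucleus. The annotation, the handling of introns and strand, and the calling of nuclei were not given in the sources used here. The lowest total is 500 UMIs in both libraries, and library totals are 29248275 UMIs in plantaris and 19048595 in gastrocnemius. All deposited nuclei were kept. Scrublet in scanpy 1.11.5 marked 2 nuclei of each library, so no doublet was removed. Counts were summed over the nuclei of a group in each library and expressed as CPM, the count per 1000000 UMIs of that group, computed here. Intervals at 95% are exact Poisson for CPM, Clopper-Pearson for shares and conditional binomial for ratios, with 3 counts as the floor for a count of 0. UMIs of 1 nucleus are not independent, so the true error is larger. The ratio step was tested on simulated data. Differences in depth affect detection, so shares were repeated after thinning to 800 UMIs. The members, 24 gene lists and tests were chosen with earlier results of these data known, and 1 of the lists is not reported here. Named genes are the 24 with the highest smaller log2 ratio of the libraries in endothelial over other nuclei, the list genes, and the 12 highest and 12 lowest between the muscles, among genes with 60 or more UMIs that were at least as high in endothelial as in other nuclei in the library where they were higher. Gene positions are from GENCODE M21, which holds 31424 of the gene names and is on the same build (GRCm38). Software was Python 3.11.15, numpy 2.4.6, scipy 1.17.1, pandas 2.3.3 and matplotlib 3.10.9.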

Additional observations from a re-analysis of the deposited data

Results flagged for a closer look

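Some values went opposite ways in the libraries, with endothelial nuclei higher than other nuclei in plantaris and lower in gastrocnemius or the reverse. Each library is a single sample, so these differences were not tested. The median log2 ratio of the mural markers, over 6 genes, was 1.46 in plantaris and -0.36 in gastrocnemius. That of the mesenchymal markers, over 7 genes, was 0.89 and -0.42. Summed, mural markers were higher in endothelial nuclei in both libraries, with 713 CPM against 476 in plantaris and 543 against 485 in gastrocnemius. Summed mesenchymal markers had 1444 against 844 in plantaris and 543 against 768 in gastrocnemius. The median of the vascular growth factor ligands, over 8 genes, was -0.25 and 0.25. Summed, the ligands were lower in endothelial nuclei in both libraries, with 805 CPM against 1093 in plantaris and 496 against 808 in gastrocnemius. Among single genes, the transporter Abca8a of mesenchymal cells had 0.70 and -0.40, Tgfbr3, a co-receptor for TGF-beta, 0.98 and -0.29, the laminin chain Lamc1 0.52 and -0.10 and the insulin receptor Insr 0.22 and -0.16. In the nuclei up to 2500 UMIs the mural median, over 4 genes, was -0.17 in plantaris and 1.89 in gastrocnemius. In the same nuclei the mesenchymal median, over 5 genes, was -0.54 and 0.06 and the ligand median, over 5 genes, -0.62 and -0.39. There Abca8a had -0.54 and 0.06, Tgfbr3 0.02 and -1.26, Lamc1 0.20 and 0.08 and Insr -0.08 and -2.30. With each nucleus's own CPM averaged, Abca8a (-0.82 and -0.91), Tgfbr3 (-0.45 and -1.10) and Lamc1 (-0.16 and -0.35) were below 0 in both libraries.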

How the results depend on the processing

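All 24 leading genes stayed past 4-fold over other nuclei in both libraries under the 12 alternatives run for them. Among these, median-ratio scaling and the minimums of 1, 20 and 50 UMIs could not change this ratio, so they say nothing about it. The alternatives do not include the rules lacking 1 gene or the minimum total of UMIs. The endothelial share of plantaris, 0.819%, became 1.38% with 2 or more selecting genes, 0.502% with 4 or more, 0.612% without the nuclei of highest myonuclear share, 0.6335% without nuclei holding another type's markers, 0.601% without nuclei of over 2500 UMIs, 0.569% among nuclei with 1000 or more UMIs, 0.557% without Flt1 in the rule and 0.6335% without Ptprb. That of gastrocnemius, 0.515%, became 0.841% with 2 or more genes. The 100 genes past 4-fold became 58 after thinning, 688 with a minimum of 1 UMI and 44 with 50. The 91 genes higher in plantaris became 149 with 2 or more selecting genes, 28 without the nuclei of highest myonuclear share, 27 without other types' markers, 6 after thinning, 12 without nuclei of over 2500 UMIs, and 1140 and 520 with minimums of 1 and 20 UMIs; 0 of the 91 were among the 27, the 6 or the 12, where fewer genes reached the minimum. The 64 lower genes became 31, 27, 14, 18, 1555 and 222 under those settings other than 2 selecting genes, and 39 without lymphatic nuclei. After thinning, arterial shares were 16.4% in plantaris and 9.09% in gastrocnemius, the venous share of plantaris 5.45% and its capillary share 67.3%. The capillary share was 93.5% in plantaris with 4 or more genes and 62.9% in gastrocnemius with 2 or more; the venous share of plantaris was 9.09% without nuclei of over 2500 UMIs. The lymphatic share of gastrocnemius became 0 of 31 nuclei with 4 or more genes and 0 of 33 without other types' markers. It became 0 of 34 without nuclei of over 2500 UMIs. The upper ends of the Clopper-Pearson intervals of these shares were 11.2%, 10.6% and 10.3%. Without lymphatic nuclei the lymphatic share is 0 by construction and was not run. The causes were not tested. Leaving out nuclei of over 2500 UMIs was chosen after seeing the data. Of the muscle genes, 7 of the 12 higher and 11 of the 12 lower ones had a ratio in that setting, all in the same direction. Among the 7, the intervals of Pcdh7, Zfp462, Sdk1, Hmcn2 and Pid1 included 0, and Naaladl2 was at its floor for 0 gastrocnemius UMIs. Among the 11, only the interval of Zfpm2 included 0. Without other types' markers 9 and 12 had a ratio, of which 6 and 4 were past 2-fold. No paired analysis was possible because each muscle has 1 library. With 75 and 38 nuclei, genes with few UMIs, among them most arterial, venous and SOX genes, cannot be compared between the muscles at this depth.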

Other observations

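Of the 100 genes past 4-fold in endothelial over other nuclei, 30 were on one of the gene lists. The genes that follow are from the remainder and were picked after their values were seen. The junctional phosphatase Ptprm had 1536 and 2894 CPM in plantaris and gastrocnemius endothelial nuclei, against 348 and 244 in other nuclei. The scaffold Magi1 had 849 and 1725 CPM in plantaris and gastrocnemius endothelial nuclei, against 98.4 and 63.6 in other nuclei. The semaphorin Sema6a had 369 and 673 CPM in plantaris and gastrocnemius endothelial nuclei, against 54.5 and 37.0 in other nuclei, and the plexin Plxna2 had 406 and 543 CPM in plantaris and gastrocnemius endothelial nuclei, against 48.7 and 36.1 in other nuclei. Matrix genes were present as well: the metalloprotease Adamts9 had 458 and 508 CPM in plantaris and gastrocnemius endothelial nuclei, against 27.8 and 23.4 in other nuclei. Eln, the elastic fibre protein elastin, had 148 and 272 CPM in plantaris and gastrocnemius endothelial nuclei, against 33.6 and 32.4 in other nuclei. Igfbp7, a secreted protein of vessels, had 439 and 402 CPM in plantaris and gastrocnemius endothelial nuclei, against 40.8 and 30.3 in other nuclei, but its log2 ratio over mural nuclei was 0.60 and 0.04. Timp3, an inhibitor of metalloproteases, had 0.52 and -0.83 over mural nuclei.

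Nuclei with 2 or more arterial but not venous genes (20 in plantaris, 8 in gastrocnemius) and those with the reverse (6 and 5) were too few to separate other genes. The leading genes on the arterial side were Atp2a2 and Cdc14a, with 14 and 19 UMIs of Atp2a2, a calcium pump of muscle, in arterial nuclei and 1 in venous nuclei of each library. The arterial nuclei held 96757 and 39085 UMIs in all and the venous nuclei 31914 and 10726. Of the arterial total in plantaris, 42337 UMIs lay in 1 nucleus, with 5.13% of them on the myonuclear markers. In gastrocnemius, 25661 and 6095 lay in 2 nuclei, with 7.28% and 5.32% on these markers. Whether the Atp2a2 UMIs came from these deep nuclei was not tested.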
